A study of Mus musculus with 352 samples.

Results

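Heat shock proteins and the chaperones that work with them were followed in the tibialis anterior, a fast muscle of the lower leg, of mice whose clock gene Bmal1 was intact, blocked, or switched back on in chosen tissues. The members were chosen by name: every protein-coding gene whose symbol starts with Hsp (without Hspg2), Dnaj, Hsf or Bag, or with Cct followed by a number, together with Cryab and Tcp1. Of 98 such genes in the annotation, 83 are measured here, out of 14413 genes in the whole table, and 77 passed a filter on low values (a mean log2 FPKM of at least 0 over all 352 libraries). The 6 below it were Hspa1a, Hspa1b, Hsf2bp, Hspbap1, Hspb11 and Bag4, and their values below come from the same models fitted without the filter.

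All mice were on the C57BL/6 strain. Wild-type mice (WT) were taken at 10-12 weeks (n = 23 libraries) and 26 weeks (n = 22), and old wild-type mice at 85-116 weeks (n = 24). KO mice carried the genotype Bmal1(stopFL/stopFL), Cre(-/-), in which a floxed stop cassette blocks Bmal1 in every tissue (n = 23 at 10-12 weeks and 24 at 26 weeks). Mu-RE mice carried the same alleles with Hsa-Cre(-/tg), which removes the stop in skeletal muscle (n = 25 and 24), Br-RE mice carried Syt10-Cre(-/tg), which removes it in brain (n = 23 and 22), and RE-RE mice carried both Cre transgenes (n = 24 and 24). These groups fed ad libitum (ALF). Further groups at 26 weeks were on time-restricted feeding (TRF): WT (n = 24), Mu-RE (n = 23) and KO (n = 23), and so was a second group of old mice (n = 24). The stop allele is shared by KO mice and all 3 kinds of Cre carriers, so tissues outside the reach of each Cre still lacked Bmal1. Muscle was frozen at 6 times of day given as zeitgeber time (ZT, where ZT 0 is lights on), namely ZT 0, 4, 8, 12, 16 and 20, with 3 to 5 mice of both sexes per time and group.

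Chaperones bind unfolded or partly folded proteins and keep them from clumping. HSP70 proteins bind and release such chains in a cycle driven by ATP, J proteins (Dnaj genes) deliver the chains and start the cycle, and nucleotide exchange factors such as HSP110 and the BAG proteins end it, while HSP90 finishes the folding of many signalling proteins and the CCT chaperonin folds actin and tubulin inside a closed chamber. Small heat shock proteins hold damaged proteins without ATP, and several of them are abundant in muscle, where HSPB8 and BAG3 act together at the Z-disc in clearing worn sarcomere proteins. When unfolded protein builds up, the factor HSF1 binds heat shock elements, arrays of the letters GAA and TTC, and switches on the heat-inducible genes.

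The promoters of 3 heat-inducible members are shown because these genes carried the largest deviation in the data, in 1 library described further on. They come from RefSeq on GRCm38.p6 and end at the base before the annotated start. Hspa1a lies at chr17:34972157-34972356 and Hspa1b at chr17:34959239-34959438, both on the minus strand, and Hspb1 at chr5:135887719-135887918 on the plus strand. Capitals mark matches to a pair of heat shock units (GAANNTTC or TTCNNGAA), which begin 104 bases before the start of Hspa1a and of Hspa1b, and 117 and 97 bases before that of Hspb1.
Hspa1a: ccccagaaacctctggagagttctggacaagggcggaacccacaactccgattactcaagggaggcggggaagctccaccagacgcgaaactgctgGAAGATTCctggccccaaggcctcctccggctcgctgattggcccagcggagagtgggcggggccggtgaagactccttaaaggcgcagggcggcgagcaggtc
Hspa1b: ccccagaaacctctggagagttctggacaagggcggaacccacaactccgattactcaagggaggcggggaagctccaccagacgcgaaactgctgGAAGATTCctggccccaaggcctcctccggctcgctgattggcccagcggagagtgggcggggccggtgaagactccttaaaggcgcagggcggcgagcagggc
Hspb1: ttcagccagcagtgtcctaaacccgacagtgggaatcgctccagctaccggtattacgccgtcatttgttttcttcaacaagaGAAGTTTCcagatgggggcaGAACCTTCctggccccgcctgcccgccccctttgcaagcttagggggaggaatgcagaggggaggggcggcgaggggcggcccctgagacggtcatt

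In these windows 199 of 200 bases are the same in Hspa1a and Hspa1b. The transcripts of that pair are also alike: 38.1% of all 150-base stretches of Hspa1a occur in Hspa1b, and 40.5% the other way, so reads may have been divided between them and their single values are uncertain. Promoter sequence was matched for 66 of the 83 members (85 start sites, 250 bases before to 50 after each start). A pair of heat shock units was present in 24.7% of the members' promoters and in 15.1% of all 32851 promoters in the table, searched on both strands. An array of 3 units, in which such a pair is followed at the same spacing by a further unit in the alternate orientation and whose matches also count among the pairs, was present in 7.06% and 0.603%. The members' share is 6 start sites of 4 members, Dnajb6, Hspd1, Hspe1 and Hsph1. Hspd1 and Hspe1 lie head to head and overlap by 112 bases. The E-box CACGTG, the letters that BMAL1 and CLOCK bind, was present in 10.6% and 7.15%. A match is a match of letters and no measurement of binding.

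The depth of the libraries, estimated from the steps of low values, was 14420000 to 46760000 fragments (read pairs), with a median of 22130000. All 8 markers of the skeletal muscle fibre were present in every group, and their summed level ranged from 15.54 to 16.76 on the log2 scale over all libraries. This bears out skeletal muscle, while these markers do not tell which muscle was taken. Arntl, the gene symbol of Bmal1, does not check the labels: its level was not lower in KO libraries (median 3.40, range 3.02 to 3.79 at 10 weeks) than in WT libraries (median 2.90, range 0.78 to 5.14), although the KO values spread much less. In these bulk samples, fewer cells of a type and less RNA per cell cannot be told apart.

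On the log2 FPKM scale, which corrects for gene length, the most abundant members were small heat shock proteins, HSP90 and the constitutive HSP70. Averaged over all libraries, Hspb6 stood at 8.89, Cryab (alpha B-crystallin, a partner of desmin and titin) at 8.83, Hsp90ab1 at 8.28, Hspa8 (the constitutive HSP70) at 8.13, Hspb8 at 7.58 and Hspb7 at 7.15. The heat-inducible partners of the constitutive forms were far lower, Hsp90aa1 at 3.77, Hspa1a at -0.04 and Hspa1b at -0.39. The group means of some other members lay closer together: excluding Br-RE and RE-RE, whose level was set by the authors' centring, the group means of Hspd1 (mitochondrial HSP60) lay between 6.27 and 6.47, of Tcp1 (a CCT subunit) between 4.81 and 5.04, of Hspa5 (the ER form of HSP70, BiP) between 5.21 and 5.42 and of the transcription factor Hsf1 between 3.97 and 4.13. Hspb7 had the widest spread of group means among the members that passed the filter, from 6.06 in Mu-RE mice at 10 weeks to 8.40 in KO mice at 26 weeks.

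One library stood apart in heat shock genes, most of all in Hspa1b and Hspa1a. In WT replicate 1 at 10 weeks and ZT 0, Hspa1b stood at 7.14 log2 FPKM, while the other 2 mice of that time and group were at 1.49 and 2.21 and the highest of the other 351 libraries was at 3.68. This is 6.60 above the median of the other 22 libraries of its group, or 97.1-fold. Hspa1a was 42.8-fold above that median, Hspb1 (HSP27) 11.5-fold, Dnaja4 7.28-fold, Hsp90aa1 5.83-fold, Cryab 5.74-fold, Hspb7 5.63-fold, Dnajb9 (an ER J protein) 5.43-fold, Hspb8 5.27-fold, Dnajb1 (the main inducible J protein of HSP70) 4.73-fold and Bag3 3.43-fold. That median covers all times of day, and the other 2 mice of ZT 0 were high in some of these genes. Among the other 22 libraries, replicate 4 was the highest for Hspb1 (7.63), Dnaja4 (5.54), Dnajb9 (5.70), Hspb8 (8.05) and Bag3 (6.37). Replicate 2 was the highest for Hspb7 (8.92, against 9.63 in replicate 1). Neither was for Hspa1a, Hspa1b, Hsp90aa1, Cryab or Dnajb1. In the plot of heat-inducible genes by library replicate 1 stands by itself in Hspa1a, Hspa1b, Hspb1 and Hsp90aa1.

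**Figure D1:**
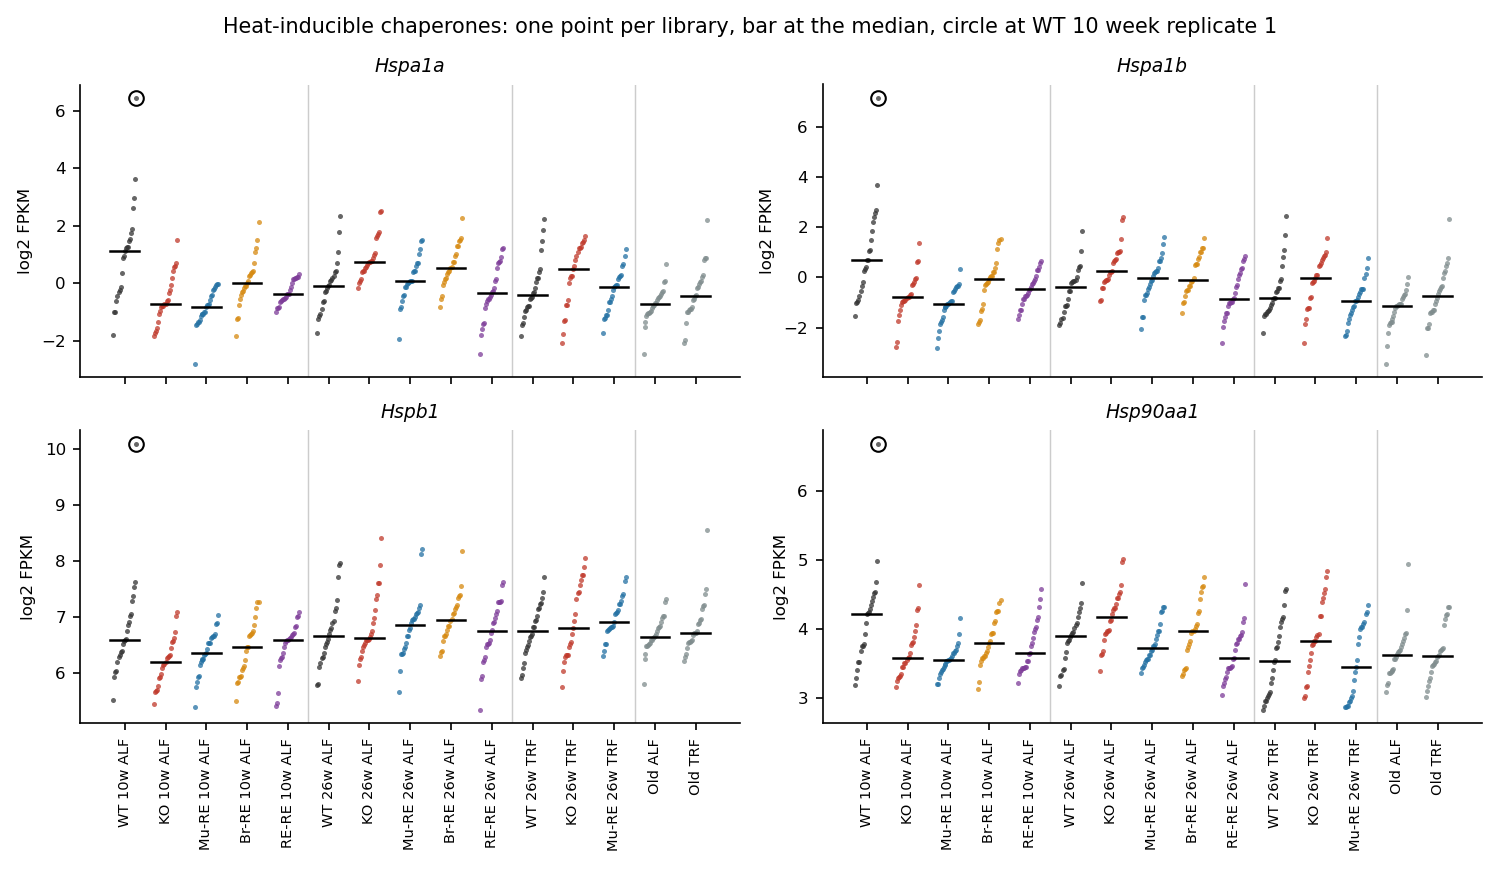
Level (log2 FPKM) of Hspa1a, Hspa1b, Hspb1 and Hsp90aa1 in each of the 352 libraries, by group, with a bar at each group's median. The circled point is WT replicate 1 at 10 weeks and ZT 0, which at 7.14 for Hspa1b lies above all other libraries, the next being at 3.68.

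This library was the highest of the 23 WT libraries at 10 weeks for 42 of the 77 members that passed the filter (54.5%), against 21.2% of all genes that passed it, and the highest of all 352 for 24 members (31.2%), against 7.12% of all genes. Of a list of 13 heat-inducible genes it was the highest of 352 for 11, with a median excess of 1.78 log2 units. It was also the highest of the 23 for 7 of the 8 small heat shock proteins (median excess 1.88), for 8 of 8 CCT subunits (median 0.49), for 3 of 3 HSP90 genes and for 7 of 9 ER chaperones (median 0.75). Among genes outside the family, it was the highest of the 23 for 12 of 15 ER stress genes (median excess 0.89), and for 11 of these 15 the highest of all 352. It was also the highest of the 23 for 9 of 18 partner proteins of HSP90 and HSP70 (median excess 0.18), but for 0 of 6 prefoldin genes. Of cell type markers, it was the highest of the 23 for 0 of 8 muscle fibre, 0 of 6 endothelial and 0 of 5 fibroblast markers, for 1 of 5 red blood cell markers (median excess 0.94) and for 2 of 6 macrophage markers (median -0.22), and these 2 were also the highest of all 352. Mitochondrial chaperones were the highest in 2 of 9, and Hsf1, Hsf2 and Hsf4 in 1 of 3. The 19 members with a pair of heat shock units in a promoter had a median excess of 1.16, and the 47 matched members without one 0.18. For the array of 3 units the medians were 0.63 in the 4 members with it and 0.38 in the 62 without, and 1 of the 4 and 15 of the 62 stood at least 1 log2 unit above. The mean of the 13 heat-inducible genes was 6.09 in this library. The next highest values in any library were 4.63 and 4.47, both in WT mice at 10 weeks and ZT 16 (replicates 19 and 20), and the 15 group medians lay between 3.29 and 3.85. Counts of members that rest on WT mice at 10 weeks are therefore also given without this library where they changed. Why it stands apart was not tested.

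In young mice, loss of Bmal1 went with lower levels of many chaperones. A level is called different here when limma's moderated test gave a Benjamini-Hochberg adjusted p (adjusted p below) under 0.05 over 9862 genes. At 10 weeks, comparing KO with WT muscle, 11 of 77 members were called higher and 26 lower, where 20.3% and 21.6% of all genes were called higher and lower. Without WT replicate 1 the counts were 11 and 24 (20.3% and 20.9% of all genes), as Bag3, Dnajc9 and Hspa13 were no longer called and Hsp90ab1 was. The median difference of the members was -0.07, against -0.00 over all genes.

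Hspa4l, an HSP110-type exchange factor, separated the genotypes completely. Its level ran from 0.99 through a median of 1.21 to 1.63 in WT mice and from -0.10 through 0.33 to 0.67 in KO mice, so the groups did not overlap (difference -0.92, SE 0.06, adjusted p = 9.78e-18). Dnaja4, a J protein of muscle and heart, fell by 1.01 (SE 0.17, adjusted p = 2.95e-06), and by 0.89 without WT replicate 1. Its reads are uncertain, since 44.1% of its exon bases lie under exons of Wdr61. Cryab ran from 8.06 (median 9.07) to 11.51 in WT and from 7.76 (median 8.32) to 9.28 in KO mice, with overlap (difference -0.80, SE 0.16, adjusted p = 0.000109, or -0.68 without WT replicate 1). Hspb1 fell by 0.59 (SE 0.19, adjusted p = 0.0115), Hsp90aa1 by 0.51 (SE 0.14, adjusted p = 0.00379), Dnajb9 by 0.55 (SE 0.12, adjusted p = 0.00028) and Hspa2, an HSP70 known from the testis, by 0.56 (SE 0.08). All 4 were still called without WT replicate 1, but the falls of the first 3 rest in part on it. In the test of the KO effect by age further on, leaving it out moved Hspb1 from 0.70 to 0.54, Hsp90aa1 from 0.82 to 0.71 and Dnajb9 from 0.24 to 0.13. Bag3 was 0.26 lower (SE 0.11, adjusted p = 0.0469), a call that was lost without WT replicate 1 (adjusted p = 0.0807). In the fit without the filter, Hspa1b fell by 1.74 (SE 0.40, adjusted p = 0.000492) and Hspa1a by 1.599 (SE 0.37, adjusted p = 0.00053), and by 1.45 and 1.35 without WT replicate 1.

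By family, 5 of the 11 tested heat-inducible genes fell and 0 rose (median -0.26), 6 of 9 ER chaperones fell and 0 rose (median -0.19), and 4 of 5 BAG genes and 2 of 3 HSP90 genes fell. Of 7 small heat shock proteins 3 fell and 1, Hspb3, rose (by 0.34, SE 0.10). Of the CCT and mitochondrial lists, 1 of 8 and 1 of 9 genes rose and 0 fell. Without WT replicate 1, 4 heat-inducible genes (median -0.17), 5 ER chaperones (median -0.13) and 3 BAG genes fell, 1 HSP90 gene, Hsp90ab1, rose beside the 2 that fell, and the other counts of these lists were the same. The members that rose most were Hspa12a and Hspa12b, distant HSP70 relatives, by 0.94 (SE 0.09, adjusted p = 7.17e-12) and 0.46 (SE 0.11, adjusted p = 0.00081). Dnajc4, a further J protein, rose by 0.33 (SE 0.04), Hsf4 by 0.23 (SE 0.07) and Hsf1 by 0.13 (SE 0.05, adjusted p = 0.0413). Beside these, all 8 muscle fibre markers rose (median 0.40), as did 4 of 6 endothelial markers (median 0.37), and all 3 tested macrophage markers fell (median -1.13). Fibre types did not move alike: of 8 fast fibre markers 5 rose and 2 fell (median 0.35). Of 6 tested slow fibre markers 0 rose and 2 fell (median -0.28). The summed macrophage level was 2.92 to 4.96 in WT and 1.43 to 3.80 in KO libraries, and the summed endothelial level 5.29 to 6.26 and 5.90 to 6.76. HSPA12B is known as an endothelial protein. The part of these cells in the chaperone values was not tested.

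At 26 weeks more members were higher than lower. In KO against WT muscle, 25 members were called higher and 13 lower, where 24.4% and 22% of all genes were, and the median difference was 0.04 (0.00 over all genes). Among members that passed the filter, the largest rises were those of Hspb7, Hspb6 and Hspb8, followed by Hspa1l, Hspa12a (0.63, SE 0.11, adjusted p = 7.54e-06) and Bag3, a partner of Hspb8. Hspb7, a cardiac and skeletal muscle chaperone that binds filamin C, ran from 5.88 through 6.82 to 8.25 in WT and from 7.30 through 8.29 to 10.40 in KO mice, a rise of 1.45 (SE 0.19, adjusted p = 4.52e-08) with overlap. Hspb6 (HSP20) ran from 8.10 through 8.75 to 9.64 in WT and from 8.78 through 9.73 to 10.50 in KO mice (rise 0.91, SE 0.12, adjusted p = 1.61e-08). Hspb8 ran from 7.28 through 7.46 to 7.97 and from 7.53 through 8.24 to 9.37 (rise 0.78, SE 0.10, adjusted p = 5.73e-09). Bag3 ran from 4.76 through 5.44 to 6.28 and from 5.46 through 6.03 to 6.60 (rise 0.61, SE 0.09, adjusted p = 2.79e-07). In each of these 4 genes the lower part of the KO range overlapped the upper part of the WT range.

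In the HSP70 and HSP110 family 6 of 11 genes rose and 2 fell (Hspa4l and Hspa13), and 2 of 3 HSP90 genes rose. Hsph1 (HSP110) rose by 0.54 (SE 0.09, adjusted p = 4.88e-06), Hsp90ab1 by 0.46 (SE 0.08, adjusted p = 1.2e-05), Hsp90aa1 by 0.31 (SE 0.11, adjusted p = 0.0213), Hspa8 by 0.27 (SE 0.07, adjusted p = 0.00266) and Cryab by 0.44 (SE 0.16, adjusted p = 0.0254). Hspa1a and Hspa1b, fitted without the filter, rose by 0.92 (SE 0.22, adjusted p = 0.000647) and 0.90 (SE 0.22, adjusted p = 0.000926). Hspa1l was 0.65 higher (SE 0.11), but 71.9% of its exon bases lie under exons of Gm10501, so its reads are uncertain. By list, 4 heat-inducible genes rose and 1 fell of 11, and 4 small heat shock proteins rose and 1, Hspb2, fell of 7. Of 9 ER chaperones, 2 rose and 4 fell. Of 18 partner proteins of HSP90 and HSP70, 6 rose and 2 fell.

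Another set of members was low in KO muscle at both ages. At 26 weeks Dnajc21, a J protein of ribosome assembly, fell by 0.60 (SE 0.06, adjusted p = 9.72e-12), Hspa4l by 0.54 (SE 0.08, adjusted p = 5.78e-07), Hspb2 by 0.46 (SE 0.10, adjusted p = 0.00023), Bag1 by 0.44 (SE 0.05, adjusted p = 5.37e-09), Dnajb9 by 0.30 (SE 0.08) and Bag2 by 0.29 (SE 0.06). Hspb2 shares 30.2% of its exon bases with its head-to-head neighbour Cryab, and the sources used here do not say whether counting was stranded. Of the 37 members called at 10 weeks and the 38 at 26 weeks, 22 were called at both ages (59.5% and 57.9%): 6 higher at both, 12 lower at both and 4 in opposite directions, namely Hspa1l, Hsp90aa1, Bag3 and Cryab. Over all genes 63.9% and 57.7% of the calls were shared, and 6.11% of the shared ones were opposite, against 18.2% of the members'. Without WT replicate 1 at 10 weeks 21 members were shared and 3 were opposite, Bag3 no longer being called. Endothelial markers were again higher in KO muscle (6 of 6, median 0.57, summed level 4.39 to 6.24 in WT and 5.41 to 6.84 in KO libraries), and 2 of 4 fibroblast and 2 of 3 macrophage markers were lower. Their part in the chaperone values was not tested.

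The KO effect at 26 weeks was compared with that at 10 weeks in a direct test of the difference of the signed effects. A positive value can thus be a larger rise, a smaller fall or a change of sign. The difference was called for 25 members, 22 with a more positive KO effect at 26 weeks and 3 with a more negative one, where 10.6% and 8.17% of all genes were called. The median was 0.09, against 0.01 over all genes. Without WT replicate 1 the counts were 20 and 3, where 9.79% and 7.66% of all genes were called. Hspb7 led with a difference of 1.96 (SE 0.31, adjusted p = 1.25e-06, and 1.87 without that library), followed by Cryab at 1.25 (SE 0.24, 1.14 without it), Dnaja4 at 1.22 (SE 0.23, 1.11 without it), Hspa1l at 0.94 (SE 0.15, 0.92 without it), Hspb6 at 0.92 (SE 0.16, 0.88 without it), Bag3 at 0.88 (SE 0.14, 0.80 without it), Hspb8 and Hsp90aa1 both at 0.82 (0.71 without it) and Hsph1 at 0.65 (0.58 without it). Hspa4l, which was lower in KO mice at both ages, was also called (0.38, SE 0.10, adjusted p = 0.00292). Dnajc12, Dnajc21 and Bag1 had the 3 negative values, -0.38, -0.21 and -0.20. Of the fibre markers, 0 of 8 for the muscle fibre were more positive and 4 more negative (median -0.27). For the fast fibre these counts were 2 and 4 of 8 (median -0.31), and for the slow fibre 2 and 0 of 6 tested (median 0.23). Their part in the chaperone values was not tested. The 2 ages were separate sets of mice, so age and whatever else differed between the sets cannot be told apart.

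**Figure D2:**
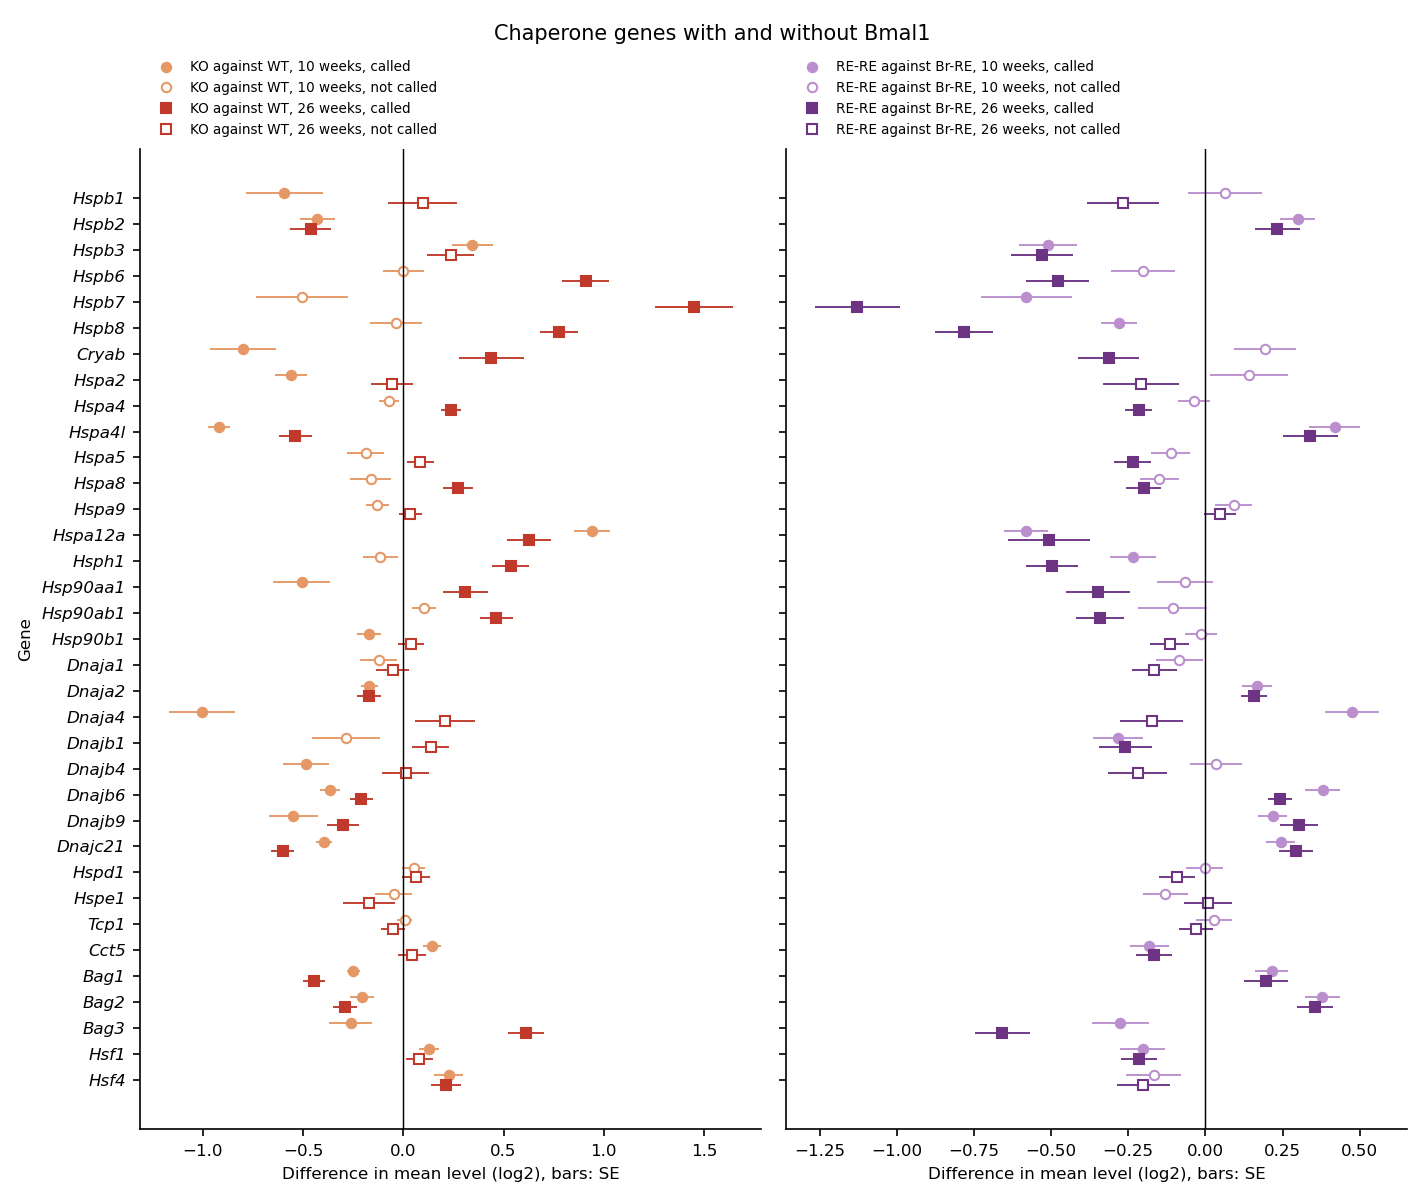
Difference in level (log2, with SE) of 35 members, KO minus WT at 10 and 26 weeks on the left and RE-RE minus Br-RE at both ages on the right, filled where the adjusted p was under 0.05. Hspb7 runs from -0.51 (not called) to 1.45 in KO against WT and to -1.13 at 26 weeks in RE-RE against Br-RE.

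Mice with Bmal1 switched on in muscle alone had lower levels of 4 of 7 small heat shock proteins than KO mice, and a higher level of 1, Hspb2, at each age. In Mu-RE against KO muscle, 14 members rose and 18 fell at 10 weeks (17.4% and 17.2% of all genes) and 12 rose and 19 fell at 26 weeks (17.3% and 16.6%); the first total, 32, was 19 to 32 when 1 animal of each time point was left out. Hspb7 fell by 0.90 at 10 weeks (SE 0.15, adjusted p = 4.34e-06) and by 1.04 at 26 weeks (SE 0.16, adjusted p = 1.39e-06). At 26 weeks it ran from 6.57 through 7.23 to 9.01 in Mu-RE mice, overlapping the KO range of 7.30 to 10.40. Hspb6 fell by 0.52 and 0.69, Bag3 by 0.31 and 0.52 (adjusted p = 0.00066 and 1.4e-06), and Hspb8 by 0.65 at 26 weeks (SE 0.10, adjusted p = 1.73e-06). Hsp90aa1 (by 0.39), Hsph1 (by 0.32), Hsp90ab1 (by 0.30) and Hspa8 (by 0.21) also fell at 26 weeks. Hspa4l rose by 0.44 at both ages (SE 0.07 at each), and Bag2, which inhibits the ubiquitin ligase CHIP, rose by 0.38 and 0.30. Cryab (0.09 at 10 and -0.26 at 26 weeks) and Hspb1 (0.14 and -0.02) were not called. Of the markers, 5 of 8 muscle fibre (median -0.16) and 4 of 6 endothelial markers (median -0.21) fell at 10 weeks, and 1 of 8 and 0 of 6 at 26 weeks.

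The same question was put to mice that had Bmal1 back in the brain. By genotype, RE-RE and Br-RE mice differ in Hsa-Cre, and these groups share no animals with KO and Mu-RE. At 10 weeks 14 members rose and 15 fell (14.8% and 17.4% of all genes), and at 26 weeks 11 rose and 26 fell (16.5% and 18.9%), with a median of -0.12 against -0.01 over all genes at 26 weeks. Hspb7 ran from 7.38 through 8.03 to 9.03 in Br-RE mice and from 5.85 through 6.82 to 8.15 in RE-RE mice at 26 weeks, a fall of 1.13 (SE 0.14, adjusted p = 6.83e-09). Hspb8 ran from 7.57 through 8.08 to 8.80 and from 6.79 through 7.29 to 8.52 (fall 0.78, SE 0.09, adjusted p = 4.78e-09). Bag3 ran from 5.60 through 5.93 to 6.60 and from 4.36 through 5.30 to 6.16 (fall 0.66, SE 0.09, adjusted p = 7.02e-08). In all 3 the groups overlapped, with every RE-RE median below the lowest Br-RE library. Hsph1 fell by 0.50 (SE 0.08, adjusted p = 4.81e-06), Hsp90aa1 by 0.35, Hsp90ab1 by 0.34, Cryab by 0.31, Dnajb1 by 0.26, Hspa5 by 0.24, Hsf1 by 0.22 and Hspa8 by 0.20. Hspa4l rose by 0.34 (SE 0.09, adjusted p = 0.00238) and Bag2 by 0.35. At 10 weeks Hspb7 and Hspa12a each fell by 0.58, Hspb8 and Bag3 each by 0.28, and Hspa4l rose by 0.42. Heat-inducible genes fell in 5 of 11 and rose in 1 at 26 weeks (median -0.22), CCT subunits fell in 3 of 8, and partner proteins fell in 7 of 18 and rose in 1.

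Of the 31 members called in Mu-RE against KO and the 37 called in RE-RE against Br-RE at 26 weeks, 26 were called in both (83.9% and 70.3%), 9 higher and 17 lower, with 0 in opposite directions. At 10 weeks the numbers were 32, 29 and 22 (68.8% and 75.9%), again with 0 opposite. Over all genes 72.4% and 69.5% of the calls were shared at 26 weeks and 61.2% and 65.7% at 10 weeks, with 1 and 5 genes opposite. Over both backgrounds and both ages, 7 members were always higher with muscle Bmal1: Bag1, Bag2, Dnaja2, Dnajb6, Dnajc21, Hspa4l and Hspb2. Another 8 were always lower: Bag3, Dnajc11, Dnajc7, Hspa12a, Hspb3, Hspb7, Hspb8 and Hsph1. Those shares, 9.09% and 10.4% of the members, stand beside 8.04% and 7.19% of all genes. The members' counts are thus close to those of genes at large. KO against WT and RE-RE against Br-RE also share no animals: at 26 weeks 28 members were called in both (73.7% and 75.7% of each list) and all 28 in opposite directions, and at 10 weeks 20 were (54.1% and 69.0%), 19 of them in opposite directions, the exception being Bag3. Without WT replicate 1 Bag3 was not called in KO against WT mice, and all 19 shared members were opposite. Over all genes 53.6% and 70.4% of the calls were shared at 26 weeks and 51.7% and 67.1% at 10 weeks, and 99.0% and 98.5% of the shared ones were opposite, so the members are close to genes at large in direction. Among cell type markers, 4 of 6 tested slow fibre markers were higher and 5 of 8 muscle fibre markers lower in RE-RE muscle at 10 weeks, 3 of 6 tested slow fibre markers were higher and 1 of 8 muscle fibre markers lower at 26 weeks, and 1 and 0 of 6 endothelial markers were called.

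**Figure D3:**
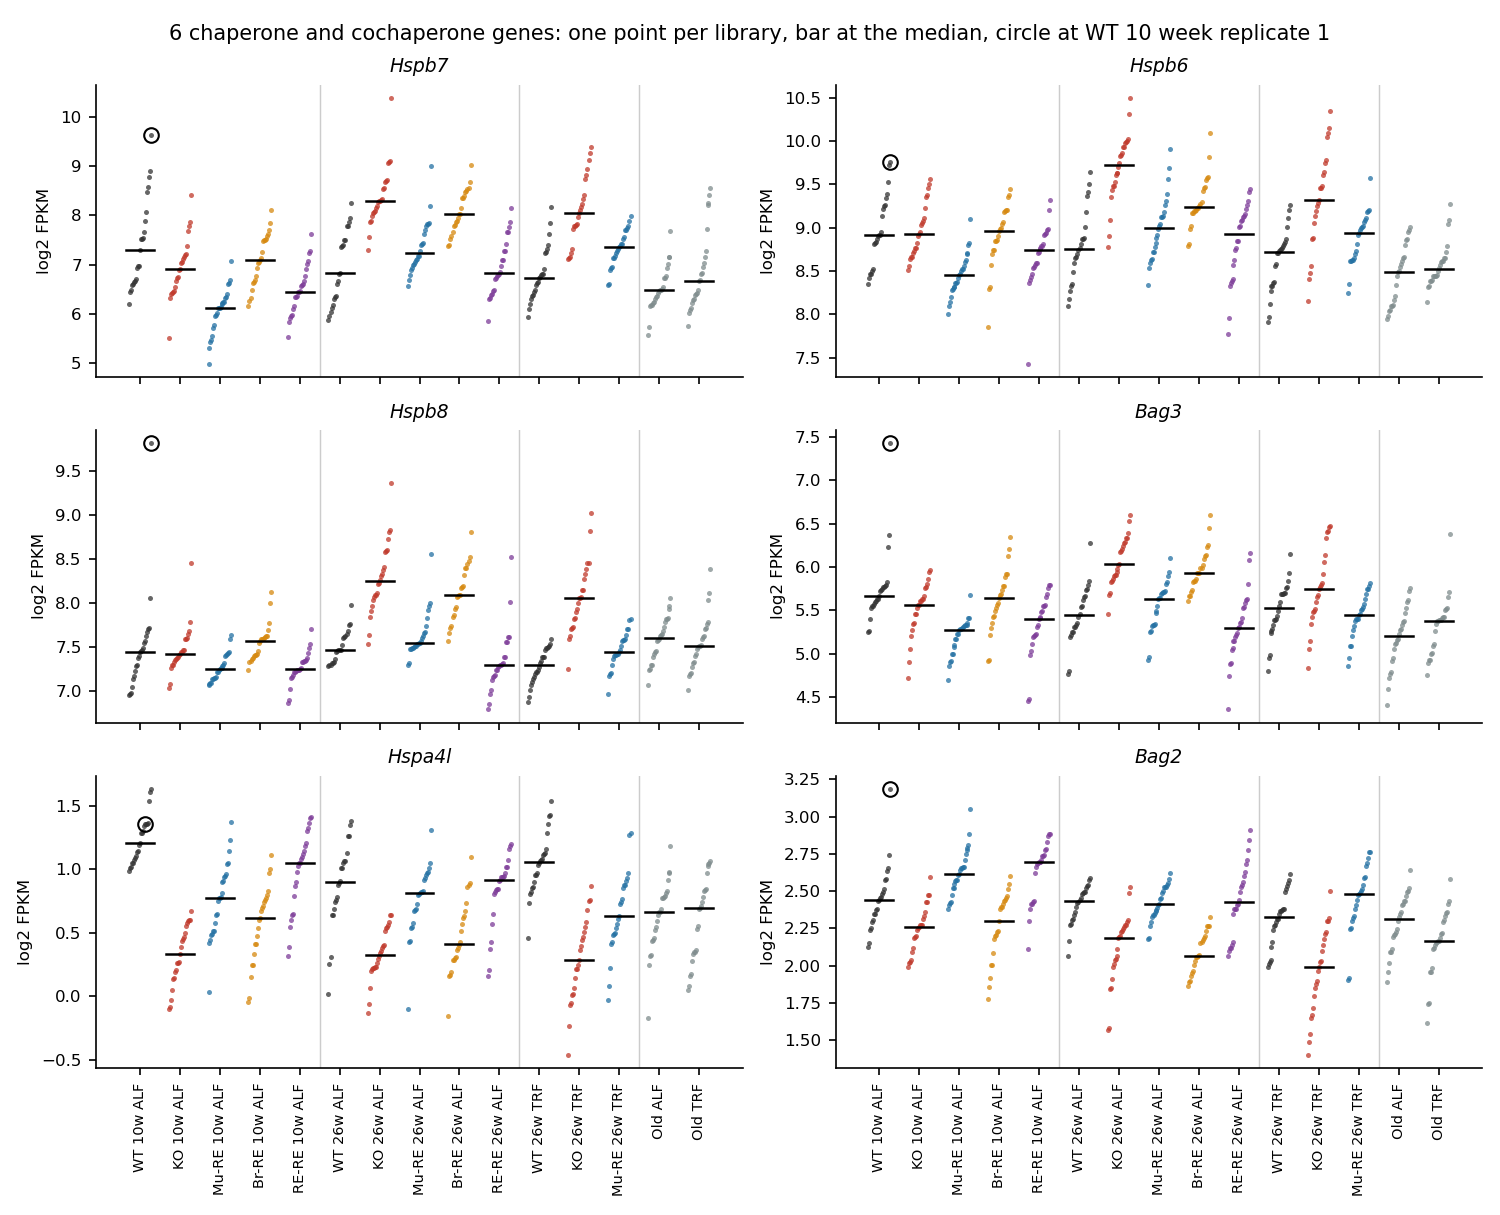
Level (log2 FPKM) of Hspb7, Hspb6, Hspb8, Bag3, Hspa4l and Bag2 in each library of the 15 groups, with a bar at the median. At 26 weeks the median of Hspb7 is 8.29 in KO and 6.82 in WT mice, and 8.03 in Br-RE and 6.82 in RE-RE mice, which the centring allows to be compared with each other alone.

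Mu-RE muscle still differed from WT muscle. At 10 weeks it had 5 members higher and 24 lower (12.6% and 13.9% of all genes). Without WT replicate 1 the counts were 5 and 23 (11.9% and 12.9%), as Dnajc25 was no longer called. Hspb7 was 1.41 lower (SE 0.20, adjusted p = 6.11e-07), Dnaja4 0.86, Cryab 0.70, Hsp90aa1 0.62, Bag3 0.56 and Hspa2 0.56 lower, and without WT replicate 1 the same genes were 1.31, 0.74, 0.58, 0.51, 0.49 and 0.55 lower, all still called. At 26 weeks 12 members were higher and 9 lower (16.4% and 14.5%), among them Hspb7 at 0.45 higher (SE 0.17, adjusted p = 0.0418), Hspa12b at 0.43, Dnajc16 at 0.34 and Hsph1 at 0.23 higher. This second count was 10 in place of 21 once each library's slope on exon length was a covariate, and Hspb7 (adjusted p = 0.283) and Hsph1 (adjusted p = 0.152) were then not called. Leaving out 1 animal of each time point gave 19 to 26 calls in place of 29 at 10 weeks and 6 to 18 in place of 21 at 26 weeks. The shares of all genes with that covariate or in the leave-one-out fits are not given here, so these changes do not tell members from genes at large. Beside these values, 3 of 3 tested macrophage markers were lower (median -0.97) and 6 of 8 muscle fibre markers higher (median 0.21) at 10 weeks. At 26 weeks 6 of 6 endothelial markers (median 0.49) and 4 of 6 slow fibre markers (median 0.43) were higher, and 2 of 3 macrophage markers lower. The summed endothelial level at 26 weeks was 4.39 to 6.24 in WT and 5.40 to 6.44 in Mu-RE libraries. The part of these cells was not tested.

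Hsf2bp, a partner of HSF2 known from meiosis, is far below the filter, at a few reads per library. It was 2.67 higher in KO than in WT mice at 26 weeks in the fit without the filter (SE 0.24, adjusted p = 1.39e-12). Its level ran from -6.07 through -3.74 to -2.34 in WT and from -2.55 through -1.34 to 0.61 in KO mice, nearly without overlap. It was 1.66 lower in Mu-RE than in KO mice (SE 0.31) and 1.56 lower in RE-RE than in Br-RE mice (SE 0.33) at that age. At 10 weeks KO and WT differed by 0.33 (SE 0.29, adjusted p = 0.401), or by 0.50 without WT replicate 1 (SE 0.25, adjusted p = 0.126). It was named after its values were seen.

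In wild-type mice from 10 to 26 weeks 14 members rose and 9 fell (20.9% and 16.1% of all genes), or 15 and 8 without WT replicate 1 (20.8% and 14.9%). Hsph1 fell by 0.48 (SE 0.09, adjusted p = 0.000102), Hspa12b by 0.45, Hspa4l by 0.38 and Bag3 by 0.31, while Dnajc19 (part of the mitochondrial import motor) rose by 0.54, Hspb3 by 0.47, Dnajc12 by 0.39, Dnajc9 by 0.35 and Tcp1 by 0.17. Dnaja4 was 0.48 lower (SE 0.19, adjusted p = 0.0423) and was not called without WT replicate 1, where Hspe1 was. The mean slope on exon length was 0.03 in WT libraries at 10 weeks and -0.03 at 26 weeks. Members that rose had a median of 3291 exon bases and those that fell 6510. With that slope as a covariate the count of calls stayed within 1.5 times its value, and the values of single members under it are not given here. Over the same ages 5 of 6 endothelial markers fell (median -0.37, summed level 5.29 to 6.26 at 10 and 4.39 to 6.24 at 26 weeks), 3 of 4 fibroblast markers fell (median -1.02) and 5 of 5 red blood cell markers rose (median 0.78), and their part was not tested. From 26 weeks to old age 6 members rose and 12 fell (12.9% and 11.2%), a total of 18 that ranged from 4 to 20 when 1 animal of each time point was left out. Hspe1 (mitochondrial HSP10) fell by 0.39 (SE 0.12, adjusted p = 0.012), Dnajc15 and Dnajc19 each by 0.34, Hspb6 by 0.33, Hspb3 by 0.30 and Bag3 by 0.28, and Hsf4 rose by 0.27 and Dnajb6 by 0.15. Hspa1a and Hspa1b, without the filter, fell by 0.69 and 0.85 (adjusted p = 0.0245 and 0.00771). All 4 tested fibroblast markers fell as well (median -1.63), their summed level being 5.86 to 7.74 at 26 weeks and 4.14 to 7.64 in old mice, and their part in these values was not tested.

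Under time-restricted feeding, more members fell than rose in WT muscle. Against ALF at 26 weeks, 6 members rose and 21 fell (20.9% and 20.1% of all genes). The falls included Hspe1 by 0.44 (SE 0.10, adjusted p = 0.000877), Dnajc19 by 0.46, Dnajb4 by 0.37 (SE 0.11, adjusted p = 0.00737), Dnajb9 by 0.36, Dnaja1 by 0.34 and Hsp90aa1 by 0.29 (SE 0.10, adjusted p = 0.0166). Of the heat-inducible genes 4 of 11 fell, of the ER chaperones 4 of 9, and of prefoldin, the helper of CCT, 5 of 6 (median -0.37). Hspa12b rose by 0.61 (SE 0.11, adjusted p = 8.91e-05), beside a rise of 3 of 6 endothelial markers (median 0.24). In Mu-RE mice 7 rose and 5 fell (9.05% and 7.87%), with Hsp90aa1 down by 0.27 (SE 0.08, adjusted p = 0.0149) and Hsph1 by 0.21. In KO mice 1 rose, Dnajc7, and 15 fell (4.78% and 9.38%), led by Hspa2 by 0.49 (SE 0.13), Hsp90ab1 by 0.38 (SE 0.11, adjusted p = 0.0221), Hspb6 by 0.37 and Bag3 by 0.30. In old mice limma called 0 members (0.122% and 0.0203% of all genes), with 5 at an unadjusted p under 0.05. Endothelial markers fell in 3 of 6 in KO mice (median -0.32). Leaving out 1 animal of each time point gave 13 to 27 calls in place of 27 in WT mice, 1 to 5 in place of 12 in Mu-RE mice and 0 to 17 in place of 16 in KO mice.

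The effect of feeding was compared between genotypes in a direct test. The difference between the TRF effect in KO and in WT mice was called for 22 members (8 more positive in KO and 14 more negative, where 11% and 16.6% of all genes were called), and that between Mu-RE and WT for 26 (21 and 5, where 18.6% and 16.2% were). The counts for KO against WT are thus close to those of genes at large. Hspb3, Dnajc19, Dnajc12 and Hspe1 were more positive in KO than in WT mice by 0.63, 0.55, 0.49 and 0.48 and in Mu-RE mice by 0.57, 0.52, 0.56 and 0.46. Hspa12b was more negative by 0.78 and 0.74, and Hspa2 by 0.61 in KO mice. Endothelial markers were more negative too, 4 of 6 in KO (median -0.60) and 4 of 6 in Mu-RE mice (median -0.43), and their part in the value of Hspa12b was not tested. Both tests use the same WT mice. In old against 26-week WT mice 3 members were called, all more positive in old mice (0.994% and 1.11% of genes more positive and more negative): Dnajb9 by 0.39 (SE 0.10, adjusted p = 0.0238), Hsf2 by 0.30 and Cct6a by 0.25. These feeding counts moved with exon length, and the shares of all genes under that change are not given here. With each library's slope on exon length as a covariate, the members called were 9 in place of 16 for TRF in KO mice, 4 in place of 12 in Mu-RE mice, and 3 in place of 22 and 9 in place of 26 in the 2 tests of difference. Which of the members named above kept their call in those tests is not given here. Leaving out 1 animal of each time point gave 5 to 24 and 7 to 26 in those tests and 0 to 4 in that of old mice. The mean slope was -0.03 in WT ALF, 0.02 in WT TRF and -0.04 in KO TRF libraries.

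A rhythm is called when a 24 h cosine was significant in a group (limma, adjusted p over 9862 genes), its amplitude is the distance from the mean to the peak on the log2 scale, and the fold is from trough to peak. Under ALF, limma called 0 members in WT mice at 10 and 26 weeks, in Mu-RE and KO mice at both ages, in RE-RE mice at 10 weeks and in old mice, where 5.84%, 1.04%, 0.071% and 0% (Mu-RE), 0.071% and 0% (KO), 0.588% and 1.41% of all genes were called. At an unadjusted p under 0.05 these groups had 17, 1, 13, 7, 3, 4, 4 and 8 members. The highest amplitude in WT mice at 10 weeks was that of Hsp90aa1, 0.62 with a peak at ZT 21.8 (adjusted p = 0.0652). Without WT replicate 1, Hsp90aa1 (0.46, peak ZT 20.9, adjusted p = 0.0345) and Dnajb14 (0.22, peak ZT 21.7, adjusted p = 0.0443) were called.

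In WT mice on TRF, 35 of 77 members were called (37.8% of all genes), and 31 of the 35 peaked between ZT 12 and ZT 24, in the dark, where 55.5% of all rhythmic genes did. Dnajb4, a J protein that clears damaged filamin, had an amplitude of 0.67 (SE 0.08, 2.54-fold, peak ZT 17.7, adjusted p = 1.22e-05), Hsp90aa1 of 0.66 (SE 0.09, 2.49-fold, peak ZT 19.6, adjusted p = 3.03e-05), Dnaja1, a main J partner of Hspa8, of 0.58 (SE 0.06, 2.23-fold, peak ZT 18.5, adjusted p = 7.96e-07) and Dnajb1 of 0.55 (SE 0.08, 2.14-fold, peak ZT 18.03, adjusted p = 4.26e-05). Hspa8 itself had an amplitude of 0.28 with its peak at ZT 19.8, Dnajb9 of 0.31 at ZT 13.4 and Hsf2 of 0.29 at ZT 15.5, while Hspa12b (0.29, ZT 0.955) peaked near lights on. Hspa1b and Hspa1a, fitted without the filter, had amplitudes of 1.17 and 1.07 with peaks at ZT 18.9 and ZT 19.6 (adjusted p = 0.000956 and 0.00184). By family the called members were 9 of 11 heat-inducible genes, 7 of 8 CCT subunits, 6 of 9 ER chaperones, 7 of 13 class A and B J proteins and 2 of 3 HSP90 genes, but 0 of 7 small heat shock proteins and 2 of 9 mitochondrial chaperones. Of the endothelial markers 5 of 6 were rhythmic too, and 3 of 8 muscle fibre markers.

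**Figure D4:**
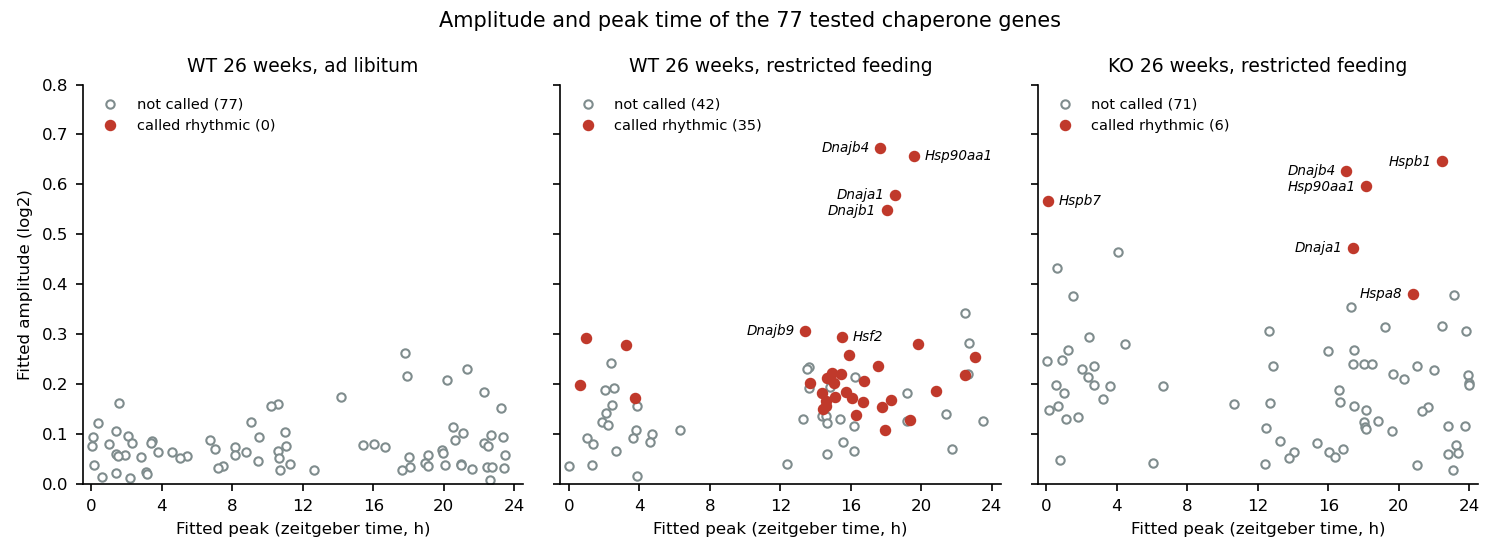
Amplitude (log2) against peak time (ZT, h) of the 77 tested members in WT mice on ALF, WT mice on TRF and KO mice on TRF at 26 weeks, filled where a rhythm was called. Limma called 0, 35 and 6 members, and most of those in WT mice on TRF lie between ZT 12 and ZT 24.

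At ZT 8, when nocturnal mice rest, Hsp90aa1 was at 2.996 in WT mice on TRF (SD 0.06, n = 4) and at 3.94 on ALF (SD 0.32, n = 3), while at ZT 16 it was at 4.20 in both (SD 0.23 and 0.35, n = 4 each). On TRF the 4 mice of ZT 8 (2.95 to 3.08) and the 4 of ZT 16 (4.03 to 4.54) did not overlap. Dnaja1 was at 1.90 at ZT 8 (SD 0.06) and at 2.99 at ZT 16 (SD 0.07) on TRF, and at 2.58 and 2.95 on ALF. Dnajb4 was at 2.23 and 3.47 on TRF (SD 0.09 and 0.36) and at 3.18 and 3.51 on ALF. In these 3 genes the mean at ZT 8 was lower on TRF than on ALF, and the means at ZT 16 lay within 1 SD of each other. The ALF mean at ZT 8 rests on 3 mice. Of these, replicate 11 had the highest mean of the heat-inducible genes in its group, 4.11, against 3.37 and 3.47 in replicates 9 and 10. A difference in rhythm between TRF and ALF was called in WT mice for 4 members, Cct3, Bag6, Dnaja1 and Tcp1 (3.92% of all genes), and in Mu-RE mice for 6, Hsp90aa1 (adjusted p = 0.000136), Dnajb4, Dnaja1, Dnajc3, Dnajb14 and Dnajc28 (4.86%). With title number as a replicate block these counts were 0 and 3, and leaving out 1 animal of each time point gave 0 to 6 and 1 to 16. In KO and old mice limma called 0 (0% and 0%), with 5 and 8 at an unadjusted p under 0.05.

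**Figure D5:**
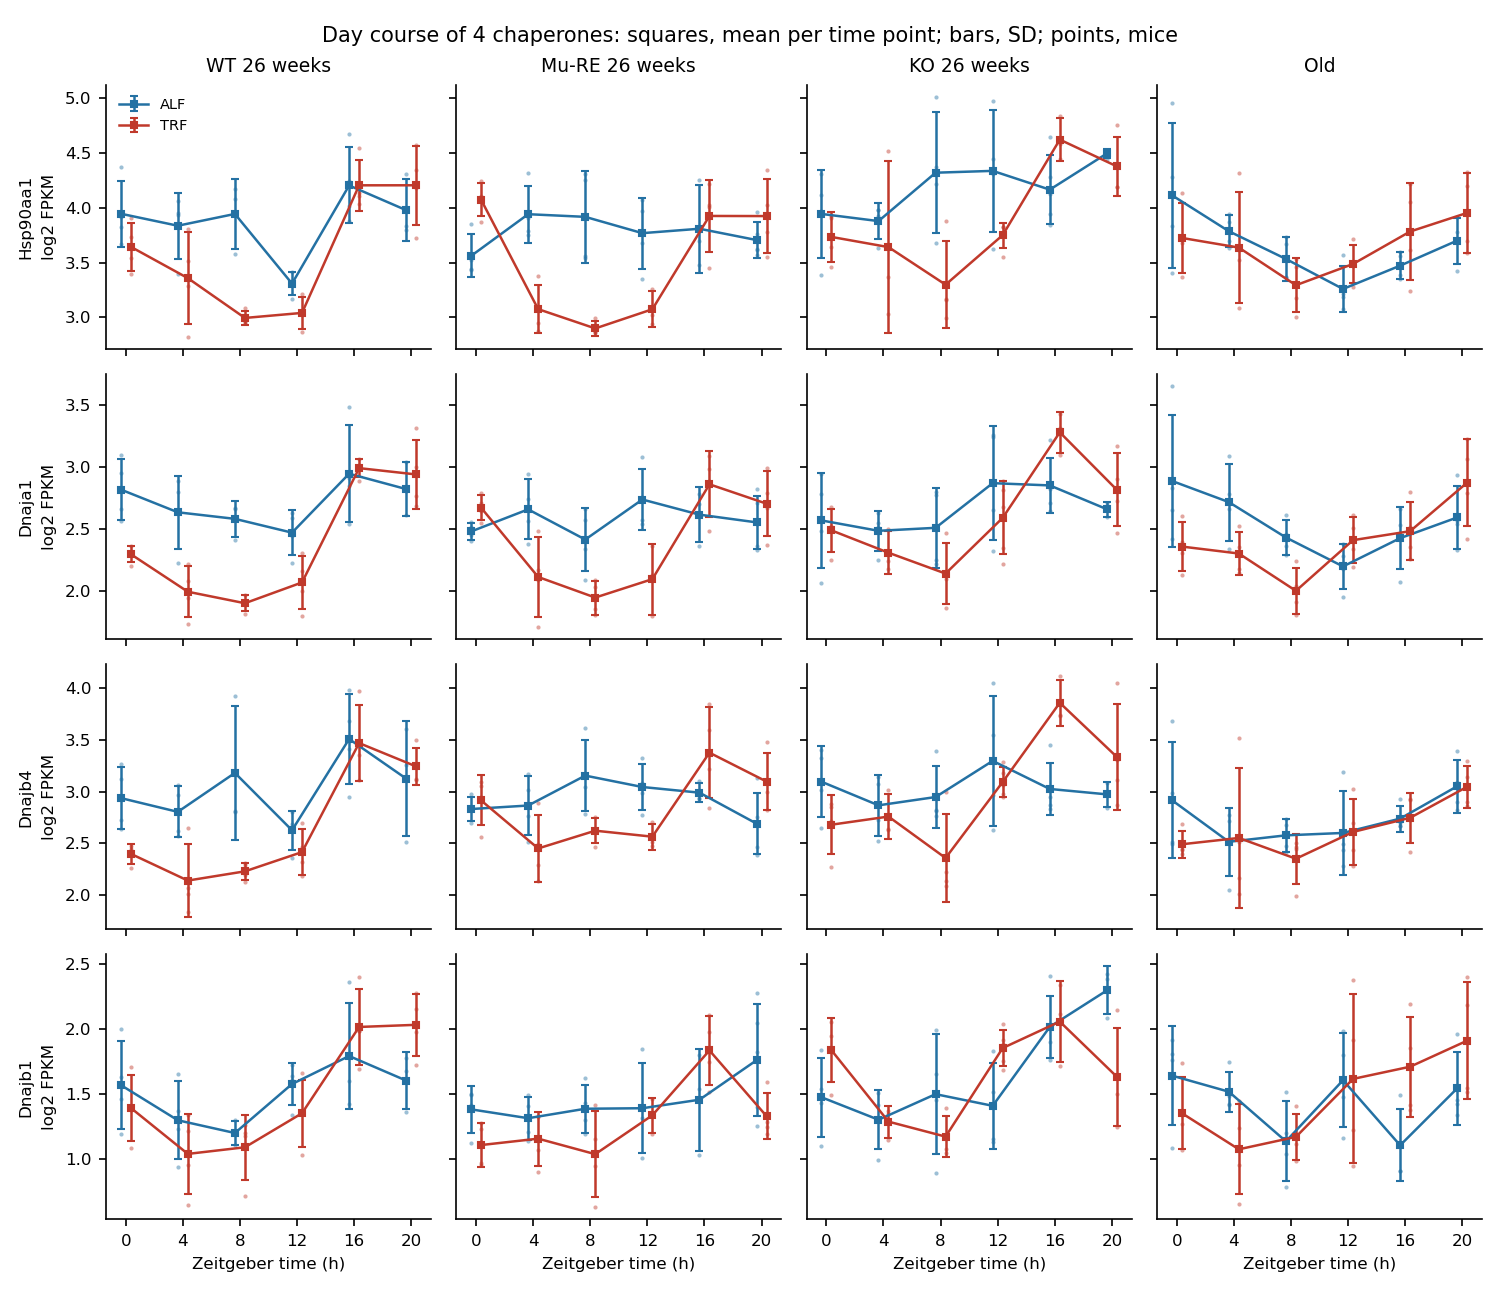
Level (log2 FPKM) of Hsp90aa1, Dnaja1, Dnajb4 and Dnajb1 at each zeitgeber time on ALF and TRF in WT, Mu-RE and KO mice at 26 weeks and in old mice; squares are means, bars SD and points single mice. In WT mice Hsp90aa1 at ZT 8 lies at 3.94 on ALF and 2.996 on TRF, and at 4.20 on both at ZT 16.

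Rhythms on TRF were also called without Bmal1. In KO mice on TRF 6 members were called (6.2% of all genes): Hspb1 (amplitude 0.65, SE 0.12, 2.45-fold, peak ZT 22.4, adjusted p = 0.0171), Dnajb4 (0.63, ZT 17, adjusted p = 0.016), Hsp90aa1 (0.60, ZT 18.2), Hspb7 (0.57, ZT 0.1), Dnaja1 (0.47, ZT 17.4) and Hspa8 (0.38, ZT 20.8). Hsp90aa1 was at 3.298 at ZT 8 (SD 0.40, n = 4) and at 4.62 at ZT 16 (SD 0.20, n = 3) in these mice. In Mu-RE mice on TRF 6 were called (6.97%), led by Hsp90aa1 (0.64, SE 0.08, 2.44-fold, peak ZT 20.2, adjusted p = 5.94e-05), Dnaja1 (0.47, ZT 19.5) and Dnajb4 (0.40, ZT 18.1), with Dnajb1, Dnajb9 and Dnajb5 between 0.26 and 0.32. In old mice on TRF 2 were called (5.71%), Dnajb9 (0.33, ZT 11.1, adjusted p = 0.0187) and Dnaja1 (0.32, ZT 19.1, adjusted p = 0.0205). Leaving out 1 animal of each time point gave 0 to 3 calls in KO mice, 2 to 7 in Mu-RE mice, 0 to 3 in old mice and 18 to 26 in WT mice, and the exon length covariate raised the KO count to 14.

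Under ALF, the one group with many rhythmic members was Br-RE at 10 weeks, which has Bmal1 in brain and not in muscle. There 29 members were called (29% of all genes), 26 of them peaking between ZT 12 and ZT 24, where 57.9% of all rhythmic genes did, with Hspb1 (amplitude 0.49, peak ZT 19.9, adjusted p = 0.0088), Hspa2 (0.39, ZT 18.2), Hspa12b (0.37), Bag3 (0.36, ZT 17.97, adjusted p = 0.00601) and Dnajb5 (0.35, ZT 17.9, adjusted p = 0.00129) in the lead. Hspa1b and Hspa1a, without the filter, had amplitudes of 1.04 and 0.99 and both peaked at ZT 18.9. Hspa1b was at -1.61 at ZT 8 (SD 0.31, n = 3, -1.87 to -1.28) and at 1.09 at ZT 16 (SD 0.72, n = 4, 0.01 to 1.51), without overlap. By family 9 of 11 heat-inducible genes and 5 of 9 mitochondrial chaperones were called, but 0 of 8 CCT subunits and 0 of 9 ER chaperones. Muscle fibre markers were rhythmic as well, 6 of 8. With exon length as a covariate 4 members were called, and leaving out 1 animal of each time point gave 2 to 28. The rhythm differed from that of KO mice for 2 members, Hspa4l and Hsph1 (0.913% of all genes), but for 0 with the exon length covariate or the replicate block, and for 0 to 5 when 1 animal of each time point was left out. In Br-RE mice at 26 weeks 1 member was called, Dnaja1 (0.36, ZT 20.97, adjusted p = 0.0356, with 0.69% of all genes), a call lost with the exon length covariate and in all 4 fits that left out 1 animal of each time point, and in RE-RE mice at 26 weeks 1, Hspb1 (0.61, SE 0.10, 2.33-fold, peak ZT 21.6, adjusted p = 0.00435, with 0.76%).

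No difference in rhythm between genotypes or ages was called for any member in the remaining comparisons. Limma called 0 for KO against WT at 10 and 26 weeks (0.517% and 0.172% of all genes), for Mu-RE against KO (0% and 0%), for Mu-RE against WT (1.11% and 0.314%), for RE-RE against Br-RE (0.152% and 0.0913%), for RE-RE against WT (0% and 0.0101%), for Br-RE against KO at 26 weeks (0%), for WT at 26 against 10 weeks (0%) and for old against WT mice (0%). At an unadjusted p under 0.05 the members numbered 2 and 4, 2 and 1, 18 and 2, 9 and 11, 1 and 6, 12, 1 and 1 in that order.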

How the data were processed

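Total RNA of whole tibialis anterior was sequenced in paired 150-base reads, per the labels' protocols. Of 360 samples the submitters excluded 8 for quality, and 352 libraries were used. The tools named, per the submitters' processing notes, are edgeR 3.30.0, limma 3.44.1, HISAT2 2.1.0, FastQC 0.11.8, Trim Galore 0.5.0 and featureCounts 1.6.2, with the build GRCm38. The sources used here name no annotation and no strand setting. The authors deposited log2 FPKM values (fragments per kilobase of gene, scaled to library size), 1 per gene and library. These deposited values had been centred: in the 259 libraries other than Br-RE and RE-RE, females and males had the same mean in every gene to within 1e-05, and, at each age, the mean over Br-RE and RE-RE libraries together equalled that over the rest. Sexes were therefore not compared, and levels of Br-RE and RE-RE only with each other.

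Depth was estimated from the steps of low values. A median of 96.1% of these per library (lowest 93.5%) lay within 0.1 of a whole fragment after an offset of 0.01 FPKM was taken off. Depth limits the genes below the filter. Symbols came from GENCODE M21. The 9862 genes whose mean log2 FPKM reached 0 were kept. Each comparison was fitted with limma 3.58.1 in R 4.3.3 (trend and robust) on its own groups, with a level, a 24 h cosine and sine per group, and sex; p-values are two-sided for levels and adjusted over all kept genes at 0.05. Python 3.11.15, pandas 2.3.3 and matplotlib 3.10.9 made the counts and plots. The models were tested on simulated data. Members, lists and tests were chosen with earlier results of these data known. Named in the text are 15 members always described, and among called members the 6 with the largest difference in each direction and the 8 with the largest amplitude in a group, or fewer where space was short; of the other lists, counts. Replicates are different mice, per the series' design. Title numbers run through the time points and name different mice, so the main fits did not use them as pairs.

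Alternatives were no filter, log2(FPKM + 1), libraries centred on their median, exon length slope as a covariate, title number as a block, leaving out 1 animal of each time point and group, and leaving out WT replicate 1 at 10 weeks. Shares of all genes are given in places for the last of these and not for the others.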

Additional observations from a re-analysis of the deposited data

Results flagged for a closer look

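Within each group and time point of 4 or 5 mice, the mean of 3 families was tested for a mouse far from the others with Dixon's test, which by chance marks about 1 in 20 groups. It marked 10 of 234. For the heat-inducible genes these were replicate 20 of WT ALF at 26 weeks and ZT 16, at 4.11 (nearest other mouse 3.68), and replicate 21 of WT TRF at ZT 20, at 4.30 (nearest 3.71). For the small heat shock proteins they were replicate 20 of KO ALF at 26 weeks and ZT 16, at 6.71 (nearest 6.33), replicate 13 of WT TRF at ZT 12, at 6.67 (nearest 5.87), replicate 9 of KO TRF at ZT 8, low at 5.96 (nearest 6.34), and replicate 21 of old ALF mice at ZT 20, at 6.04 (nearest 5.86). For CCT they were replicate 14 of WT ALF at 26 weeks and ZT 12, low at 4.74 (nearest 4.90), replicate 19 of KO ALF at 10 weeks and ZT 16, at 4.92 (nearest 4.77), replicate 3 of Mu-RE TRF at ZT 0, at 5.20 (nearest 5.03), and replicate 4 of old ALF mice at ZT 0, at 5.07 (nearest 4.87). WT replicate 1 at 10 weeks belongs to a time point of 3 mice, which was not tested.

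Effects that differed between groups by a test of the difference itself were those of KO between 26 and 10 weeks (25 members) and of TRF between KO and WT (22), between Mu-RE and WT (26) and between old and 26-week WT mice (3). For KO by age, 10.6% of all genes were called more positive and 8.17% more negative. For TRF these shares were 11% and 16.6% (KO), 18.6% and 16.2% (Mu-RE) and 0.994% and 1.11% (old mice). The totals of 22 and 26 are thus close to those of genes at large, and both fell with exon length as a covariate.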

How the results depend on the processing

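Outside the leave-one-out fits, 226 of 249 counts of called members stayed within 1.5 times their value and 23 did not. Of 1103 values of single named members in those fits 1032 kept their call, 71 lost it and 0 changed sign. In the 4 leave-one-out fits 77, 74, 69 and 40 of 221 such values lost their call, and 0 changed sign. The cause of each change was not tested. No share of all genes stands beside the counts below, so they do not tell members from genes at large. With the exon length slope as a covariate, rhythm counts went from 0 to 3 in WT at 10 weeks, from 29 to 4 and from 1 to 0 in Br-RE at 10 and 26 weeks, from 1 to 3 in RE-RE at 26 weeks, from 6 to 10 in Mu-RE TRF, from 6 to 14 in KO TRF, from 0 to 3 in old ALF and from 2 to 4 in old TRF mice. Level counts went from 21 to 10 for Mu-RE against WT at 26 weeks, from 12 to 4 for TRF in Mu-RE and from 16 to 9 for TRF in KO, the rhythm difference of Br-RE from KO at 10 weeks from 2 to 0, and the differences in TRF effect from 22 to 3 (KO) and from 26 to 9 (Mu-RE). Centring on the median gave 1 rhythm in WT at 10 weeks, 10 level calls for TRF in KO and 1 rhythm difference of Br-RE from KO at 10 weeks, and no filter gave 1 for the last. Without WT replicate 1, 2 rhythms were called in WT at 10 weeks. With the replicate block, the rhythm difference was called for 1 member in place of 0 for Mu-RE against WT at 10 weeks, 0 in place of 4 for TRF in WT, 3 in place of 6 for TRF in Mu-RE and 0 in place of 2 for Br-RE against KO at 10 weeks, and no other count moved by over 1.5 times. Over 18 comparisons the median correlation of same-numbered mice lay between -0.05 and 0.16 and the lowest was -0.48. In most comparisons it was above that of mice with other numbers at the same time of day. For TRF in KO mice the medians were 0.16 and -0.05, and for RE-RE against Br-RE at 26 weeks -0.05 and 0.01. What same-numbered mice share was not tested.

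Leaving out 1 animal of each time point of each group, rhythm counts ranged from 0 to 1 in WT at 10 weeks, from 2 to 28 in Br-RE at 10 weeks, from 0 to 0 in Br-RE and from 0 to 2 in RE-RE at 26 weeks, from 18 to 26 in WT TRF, from 2 to 7 in Mu-RE TRF, from 0 to 3 in KO TRF and from 0 to 3 in old TRF mice. Level counts ranged from 27 to 32 and from 30 to 36 for KO against WT at 10 and 26 weeks, from 19 to 32 and from 26 to 29 for Mu-RE against KO, from 19 to 26 and from 6 to 18 for Mu-RE against WT, from 20 to 32 and from 29 to 37 for RE-RE against Br-RE, from 16 to 22 for WT at 26 against 10 weeks, from 4 to 20 for old against WT, and from 13 to 27, from 1 to 5 and from 0 to 17 for TRF in WT, Mu-RE and KO. Rhythm differences ranged from 0 to 6 for TRF in WT, from 1 to 16 for TRF in Mu-RE and from 0 to 5 for Br-RE against KO at 10 weeks. Differences of effect ranged from 17 to 21 for KO by age and from 5 to 24, from 7 to 26 and from 0 to 4 for TRF in KO, Mu-RE and old mice. Fewer mice take part in each of these fits. Depth limits the members below the filter, at a few reads per library.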
